A study of Mus musculus with 22 samples.

Results

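A set of 9 sperm transcripts was followed across 22 epididymal fat pads, taken from 10 hypoxia mice and 12 normoxia mice: protamine 1 and 2 (Prm1, Prm2), transition proteins 1 and 2 (Tnp1, Tnp2), Odf1, Akap4, Smcp, Gapdhs and Ldhc. They are 9 of 34741 genes on the array, were chosen by name with earlier results of these data known, and are carried by 12 probes, all of which were found. The hypoxia mice breathed 12% oxygen and the normoxia mice 20.9% oxygen for 6 h, while fasted, before the pad was removed. All were male C57BL/6JOlaHsd mice that arrived at 10 weeks of age, ate a diet with 10% of its energy as fat for 3 weeks and then one with 40% for 6 weeks; the treatment text also mentions low-fat feeding without naming mice. Each array carried the Cy5-labelled RNA of 1 mouse against a Cy3-labelled pool of all mice, so a log2 Cy5/Cy3 ratio above 0 means a level above the pool. No dyes were swapped. Single fat pads were used, so the cells of a pad, and whatever tissue was cut with it, were measured together; fewer cells of a type and less RNA per cell cannot be told apart.

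The epididymal pad lies against the epididymis, the coiled tube in which sperm leaving the testis mature and are stored. The genes described here are switched on in male germ cells, most of them in the haploid spermatids, and they build parts that no fat cell has. Transition proteins and then protamines replace the histones and pack the DNA of the sperm head. Odf1 is a protein of the outer dense fibres of the tail, Akap4 is the main scaffold of its fibrous sheath, and Smcp coats the mitochondria of the midpiece. Gapdhs and Ldhc are the sperm forms of glyceraldehyde-3-phosphate dehydrogenase and lactate dehydrogenase, enzymes of the glycolysis that powers swimming.

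Each probe was 60 bases long, and 1 probe each of a tail gene and of both enzymes is shown as an example of what the arrays read; the files place the probes on mm9. For Gapdhs and Ldhc it is the second probe, while the values below are those of the first, except where the second is named. Odf1 was read at chr15:38149190-38149249 on the plus strand, Gapdhs by that probe at chr7:31514906-31514965 on the minus strand, and Ldhc by that probe at chr7:54131104-54131163 on the plus strand.
Odf1: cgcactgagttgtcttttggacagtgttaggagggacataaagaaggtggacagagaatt
Gapdhs: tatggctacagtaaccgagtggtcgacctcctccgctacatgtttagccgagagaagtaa
Ldhc: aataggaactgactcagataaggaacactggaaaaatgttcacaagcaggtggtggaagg
The probes of Prm1, Prm2 and Tnp2 lie within 8481 bases of each other on chromosome 16, at 10796450 to 10796509, 10791549 to 10791608 and 10788029 to 10788088, all on the minus strand. The other first probes lie on chromosomes 1 (Tnp1, 73061834 to 73061893, minus strand), X (Akap4, 6655646 to 6655705, plus strand), 3 (Smcp, 92387882 to 92387941, minus strand) and 7 (Gapdhs, 31514799 to 31514858, minus strand, and Ldhc, 54133274 to 54133333, plus strand).

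Upstream sequence is shown because the genes varied together across mice. RefSeq's promoter table (GRCm38.p6) held 8 of the 9 genes, all but Odf1, and the 250 bases before each annotated start were searched on both strands for TGANGTCA (TGACNTCA on the other strand), a form of the cAMP response element that the spermatid factor CREM binds. The motif was chosen after the sequences had been read. It was found upstream of 4 of the 8 genes, Tnp1, Gapdhs, Akap4 and Prm1, against 8.55% of 27025 genes in the table. By window, 5 of the 11 windows of the 8 genes held it, against 7.49% of 32851. Its matches are in capitals in the windows of Tnp1 (chr1:73015900-73016149, minus strand), Gapdhs (the first of 2 entries, chr7:30743682-30743931, minus strand), Akap4 (the first of 2 entries, chrX:7067265-7067514, plus strand) and Prm1 (chr16:10796824-10797073, minus strand).
Tnp1: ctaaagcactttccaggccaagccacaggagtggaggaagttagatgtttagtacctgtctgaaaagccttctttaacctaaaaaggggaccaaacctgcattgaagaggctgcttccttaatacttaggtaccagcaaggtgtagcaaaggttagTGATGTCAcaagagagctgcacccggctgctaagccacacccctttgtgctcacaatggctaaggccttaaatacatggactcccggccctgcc
Gapdhs: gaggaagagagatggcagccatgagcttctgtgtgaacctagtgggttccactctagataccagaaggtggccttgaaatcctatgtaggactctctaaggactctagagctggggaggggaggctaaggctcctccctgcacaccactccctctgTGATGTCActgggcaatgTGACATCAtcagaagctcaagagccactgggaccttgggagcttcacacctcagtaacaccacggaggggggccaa
Akap4: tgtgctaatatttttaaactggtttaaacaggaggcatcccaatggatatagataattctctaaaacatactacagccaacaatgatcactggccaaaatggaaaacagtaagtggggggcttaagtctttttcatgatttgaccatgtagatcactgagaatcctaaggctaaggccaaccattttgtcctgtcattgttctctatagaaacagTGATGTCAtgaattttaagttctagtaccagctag
Prm1: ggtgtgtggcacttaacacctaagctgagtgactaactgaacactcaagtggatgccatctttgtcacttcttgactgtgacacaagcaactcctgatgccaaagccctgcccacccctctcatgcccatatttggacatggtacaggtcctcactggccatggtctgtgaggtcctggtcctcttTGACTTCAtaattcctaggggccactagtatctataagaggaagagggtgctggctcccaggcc
The match began 94 bases before the start of Tnp1, 35 before that of Akap4 and 64 before that of Prm1, and Gapdhs held 2 matches, the first 94 bases before its start. No match was found in these windows of Prm2, Tnp2, Smcp or Ldhc, nor in that of the second Akap4 entry. A match is a run of letters and no measured binding site.

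The arrays differed in brightness. Between 15.6% and 76.9% of gene spots were well above background in Cy5, which is the scanner software's call for a signal clear of its local background, and the 4 arrays of slide 1 (hypoxia replicates 5 and 7, normoxia replicates 3 and 5) had only 15.6% to 18.9%. In Cy3, the pool, the 12 probes were well above background on all 22 arrays, except that of Odf1, on 7. In Cy5 they ranged from 19 arrays for Prm2 to 3 for the second Akap4 probe, and no spot of theirs had an outlier flag. Normoxia replicate 1 stood apart for most of these genes, so the main results that rest on it are also given without it.

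The protamine transcripts, which serve the final packing of sperm DNA, differed widely between mice. Prm2 had a Cy5 signal of 32.9 at the lowest, 172.4 at the median and 780.6 at the highest of the 10 hypoxia mice, against 45.7, 160.8 and 23540 in the 12 normoxia mice. The highest value was that of normoxia replicate 1, while the other 21 mice lay between 32.9 and 780.6. The pool's Cy3 signal for Prm2 was between 2518 and 3739 on those 21 arrays and 4591 on the array of normoxia replicate 1. As log2 ratios, Prm2 ranged from -3.19 through a median of -2.30 to 0.55 in the hypoxia mice, against -3.35, -1.49 and 2.77 in the normoxia mice. Prm1 ranged from -2.37 through -1.74 to 0.88 in the hypoxia mice, against -3.18, -1.19 and 2.77 in the normoxia mice. The groups overlapped for both protamines, and 17 of 22 mice for Prm2 and 18 of 22 for Prm1 were below the pool. The Cy5 signal of Prm1 was 9122 in normoxia replicate 1 and between 31.1 and 541.4 in the other 21 mice.

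**Figure D1:**
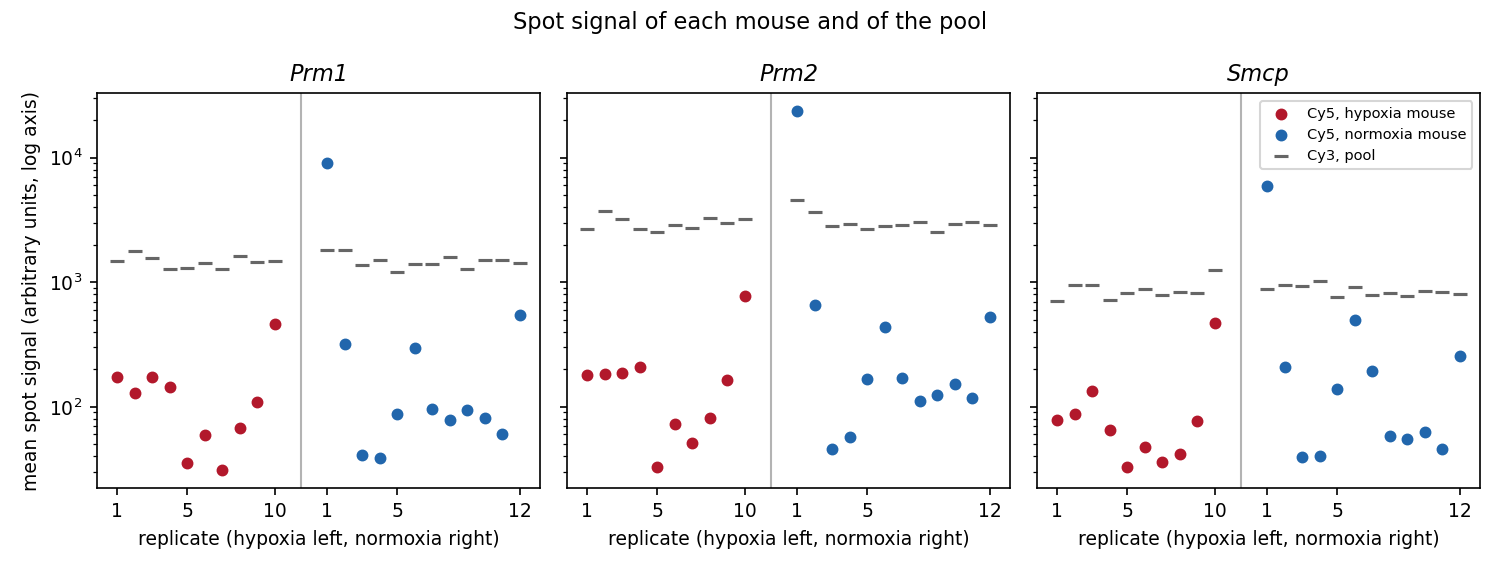
Mean spot signal of Prm1, Prm2 and Smcp in each mouse (Cy5, points, hypoxia left and normoxia right) and in the pool on the same array (Cy3, dashes), on a log axis in arbitrary units. The pool's signal for Prm2 stays between 2518 and 4591, the signal of normoxia replicate 1 lies above it for all 3 genes, and those of the other 21 mice lie below it before the dyes are balanced.

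The transition proteins, which precede the protamines on the DNA, had a narrower range on this scale. Tnp1 ranged from -1.20 through -0.51 to 0.27 in the hypoxia mice, against -1.20, -0.39 and 0.53 in the normoxia mice. Tnp2 ranged from -1.11 through -0.57 to 0.41 in the hypoxia mice, against -1.32, -0.36 and 0.66 in the normoxia mice. The groups overlapped throughout, and normoxia replicate 1, with 0.40 for Tnp1 and 0.66 for Tnp2, did not stand apart in ratio as it did for the protamines: for Tnp1 the highest mouse was normoxia replicate 5, with 0.53. In Cy5 signal normoxia replicate 1 was the highest, with 269 for Tnp1 and 324.2 for Tnp2. The other mice reached at most 128.7 and 144. Normoxia replicate 5, on the dim slide 1, had a Cy5 signal of 54.9 for Tnp1. Tnp1 was well above background on 10 arrays and Tnp2 on 7, and the offset of 50 added to the signals narrows the range of such dim probes. The scanner software's own ratio has no such offset, and each array's median over gene spots was subtracted from it. By that ratio, Tnp1 lay between -3.25 and 2.17 and Tnp2 between -4.08 and 1.67, against -4.21 to 2.88 for Prm2. The transition proteins thus kept a narrower range than Prm2, but the gap was smaller than on the scale with the offset. Normoxia replicate 1 had 0.57 for Tnp1 and 0.84 for Tnp2 by that ratio.

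Of the tail genes, Smcp behaved like the protamines. It ranged from -2.35 through -1.47 to 1.13 in the hypoxia mice, against -2.60, -0.54 and 3.18 in the normoxia mice. After normoxia replicate 1 (3.18), the highest mice were normoxia replicates 6 (1.77) and 5 (1.53) and hypoxia replicate 10 (1.13). Akap4 and Odf1 were well above background on 4 arrays each. Akap4 ranged from -0.98 through -0.42 to 0.22 in the hypoxia mice, against -1.15, -0.30 and 2.49 in the normoxia mice. Odf1 ranged from -0.60 through -0.10 to 0.09 in the hypoxia mice, against -0.44, -0.14 and 1.48 in the normoxia mice. Both values at the top were again those of normoxia replicate 1, and the next mouse reached 0.22 for Akap4 and 0.28 for Odf1. The second Akap4 probe was well above background in no hypoxia mouse and in 3 normoxia mice. It overlaps the first by 39 bases and followed it over the 22 mice with a Pearson r of 0.95. Spearman's rho, which uses ranks alone, was 0.82.

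The sperm enzymes of glycolysis showed a single high mouse. Gapdhs ranged from -0.83 through -0.60 to -0.09 in the hypoxia mice, against -0.94, -0.32 and 2.29 in the normoxia mice. Ldhc ranged from -1.92 through -1.07 to -0.30 in the hypoxia mice, against -2.06, -0.83 and 3.25 in the normoxia mice. Normoxia replicate 1 gave the top value for both; without it the highest mouse had 0.16 for Gapdhs and 0.06 for Ldhc, and by these probes no hypoxia mouse was above the pool. By the second probes, hypoxia replicates 7 and 10 were above it for Gapdhs (both 0.12), and hypoxia replicates 10 (0.25) and 5 (0.015) for Ldhc. Gapdhs was well above background on 10 arrays and Ldhc on 4. The 2 probes of Gapdhs, which share no bases, agreed over the 22 mice with an r of 0.94, and those of Ldhc with 0.93. These r values include normoxia replicate 1, and Spearman's rho was 0.80 for Gapdhs and 0.79 for Ldhc. Somatic relatives of these enzymes were nearer to the pool in normoxia replicate 1: its log2 ratio was 0.19 for Gapdh, 0.41 for Ldha and -0.15 for Ldhb. Pgk1 and Akap1, which are not forms of these enzymes, had 0.05 and 0.03 there.

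**Figure D2:**
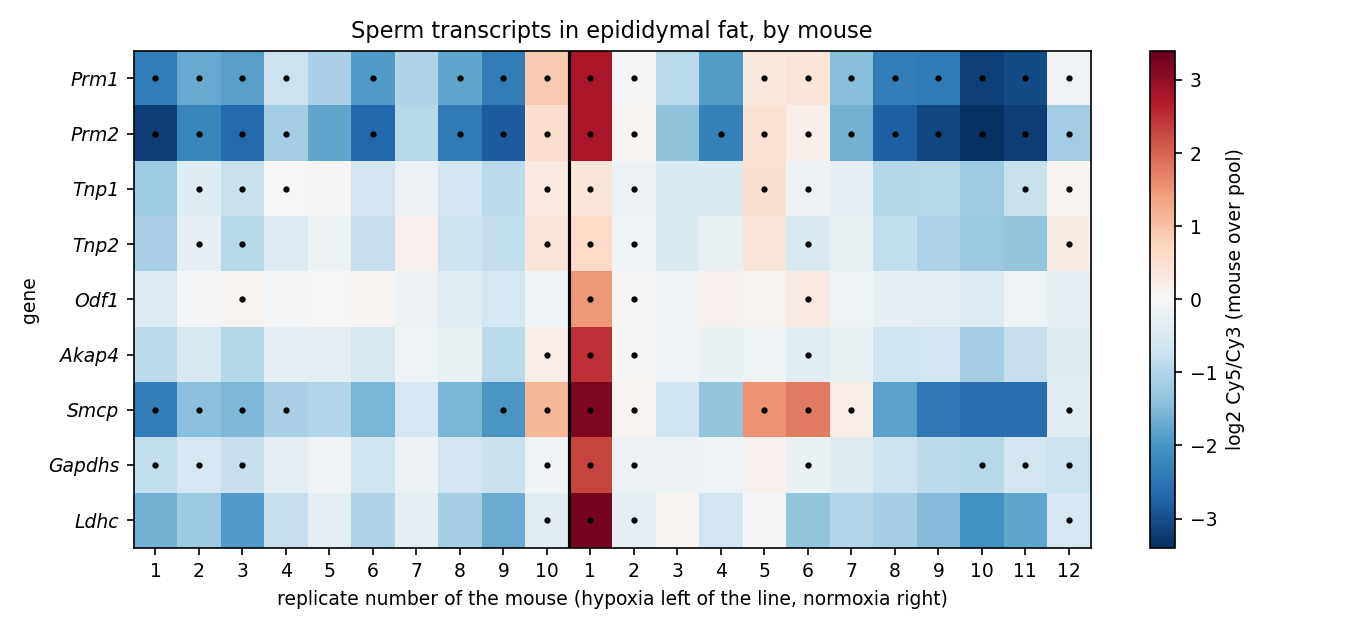
Log2 Cy5/Cy3 of the 9 genes (rows) in each of 22 mice (columns, hypoxia left of the line and normoxia right), red above the pool and blue below it, with a dot where the Cy5 spot was well above background. The column of normoxia replicate 1 is red for all 9 genes, and the deepest red elsewhere is that of Smcp in normoxia replicates 6 (1.77) and 5 (1.53) and hypoxia replicate 10 (1.13); paler red cells are scattered over other mice.

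The 5 genes that were bright enough to be tested lay between the 14th and the 523rd of 16593 genes by their spread between mice; the choice of genes used that spread, and it is given as a description. The SD between mice, pooled within the groups, was 1.58 for Prm2, 1.53 for Smcp, 1.45 for Prm1, 0.67 for Gapdhs and 0.51 for Tnp1 on the log2 scale, against a median of 0.23 over 16593 genes. From the top, Prm2 was 14th, Smcp 16th, Prm1 24th, Gapdhs 268th and Tnp1 523rd. Without normoxia replicate 1 they were 42nd, 35th, 60th, 1931st and 545th, so Gapdhs owed its place to that mouse and Tnp1 did not. The untested genes had SDs of 1.10 (Ldhc), 0.72 (Akap4), 0.58 (Tnp2) and 0.41 (Odf1). On the linear scale, normoxia replicate 1 alone made up 45.0% of the sum of ratios over the 22 mice for Ldhc, 42.9% for Prm2, 37.9% for Prm1 and 35.0% for Smcp, but 7.53% for Tnp1 and 8.94% for Tnp2. By the scanner software's ratio its share was 70.2% for Ldhc, 47.7% for Prm2, 43.9% for Prm1, 43.2% for Smcp, 8.84% for Tnp1 and 11.7% for Tnp2.

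Mice that were high for one of these genes tended to be high for the others, which again is a description. Not every mouse followed this: normoxia replicate 6, with 1.77 for Smcp, was among the 6 highest mice for 4 of the 9 genes. With group means subtracted, the Pearson r of the 36 pairs of genes over 22 mice had a median of 0.83, from 0.55 (Tnp2 with Odf1) to 0.98 (Prm1 with Prm2), and the Spearman rho a median of 0.78. Without normoxia replicate 1 the median r was 0.80, from 0.38 (Odf1 with Ldhc) to 0.97 (Prm1 with Prm2). With slide means subtracted it was 0.83. All values of a mouse come from 1 array, so they share its brightness and its slide. Ordered by the mean ratio of the 9 genes, the highest mice were normoxia replicates 1 (2.14) and 5 (0.38), hypoxia replicate 10 (0.32), and normoxia replicates 6 (0.00) and 2 (-0.07). The lowest was normoxia replicate 10 (-1.80), below normoxia replicate 11 (-1.58), hypoxia replicate 1 (-1.56) and normoxia replicate 9 (-1.47). Both ends of the order held normoxia mice. Normoxia replicate 5 was on the dim slide 1, whose other mice came 7th to 9th; the part of the slide in this order was not tested. Its Cy5 signal for Prm2 was 168, against 780.6 in hypoxia replicate 10, 434 in normoxia replicate 6 and 523.5 in normoxia replicate 12, and its ratio after balancing the dyes within each array was 0.50, against 0.55, 0.17 and -1.18 in those mice. The scanner software's own ratio for Prm2 in that mouse was 0.76.

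Marker lists of the tissues that could be cut with the pad were set beside these genes. Other spermatid and sperm genes moved with them. Of 51 listed, 50 were on the array and 20 were well above background on at least 5 arrays; all 20 were above the pool in normoxia replicate 1 (median 1.71), and 16 of the 20 were highest in that mouse. The brightest were Odf2, a tail fibre protein (2.69 in normoxia replicate 1), Fscn3, an actin-bundling protein of the testis (2.03), Tcp11, a t-complex protein of sperm (1.88), and Spaca1, a protein of the acrosome membrane (1.33). The mean of the 20 genes in normoxia replicate 1 was 1.91 above their mean over all mice, and the next highest were normoxia replicates 2 (0.54), 6 (0.51) and 5 (0.44) and hypoxia replicate 10 (0.43). Of 19 spermatocyte genes, 4 were measured and 3 of them were highest in normoxia replicate 1: Hspa2, a chaperone of meiosis (0.96), Sycp3, of the synaptonemal complex (0.34), and Tex101 (2.30). Msh5, a meiotic mismatch repair protein, had -0.02 there.

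Epididymis epithelium genes had another order of mice. Of 36 listed, 18 were measured, and in normoxia replicate 1 they were below the pool for 17 of the 18 (median -2.19), whereas in normoxia replicate 5 they were above it for all 18 (median 2.22) and highest of all mice for 15. The other 3 were highest in normoxia replicate 6. The brightest were Rnase10 and Lcn12, secreted proteins of the epididymis, Gpx5, its glutathione peroxidase, and Defb48, a beta-defensin. Rnase10 was 3.75 in normoxia replicate 5 and 1.71 in replicate 6 against -1.84 in replicate 1, Gpx5 was 1.76, 0.70 and -2.45, Defb48 was 3.33, 1.00 and -4.21, and Lcn12, which varied least, was 0.22, 0.43 and -0.28. The median mouse of each group was below the pool too. Hypoxia medians were -1.14 for Rnase10, -1.97 for Gpx5, -3.01 for Defb48 and -0.09 for Lcn12. In the same order, normoxia medians were -1.17, -2.03, -3.11 and -0.06. The list's mean over 18 genes was highest in normoxia replicates 5 (3.23) and 6 (1.95), followed by hypoxia replicate 7 (0.93), and normoxia replicate 1 came 20th of 22 (-0.93). The mouse highest for 8 of the 9 sperm genes was thus 20th for epididymis epithelium, while normoxia replicates 5 and 6 were among the 4 highest for both. All 4 arrays of the dim slide 1 were among the 5 highest for epididymis epithelium (normoxia replicate 3 had 0.62 and hypoxia replicate 5 had 0.52); the part of the slide in this was not tested.

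Markers of other testis cells were mixed in that mouse. Of 11 Sertoli cell genes 5 were measured, and in normoxia replicate 1 they ranged from -1.08 (Cldn11, a tight junction protein) to 0.65 (Amhr2, the receptor of anti-Müllerian hormone), with Dhh at 0.50, Dmrt1 at -0.02 and Sox9 at -0.95; Amhr2 was highest there of all mice. Of 8 Leydig cell genes, Cyp17a1 and Star, both of steroid synthesis, were measured, with 0.44 and 0.15. Of 12 genes of the vas deferens and accessory glands only Svs5, a seminal vesicle protein, was measured, with -0.45. The tissue's own markers were bright: all 12 adipocyte genes were measured, among them Fabp4, Cfd, Cidec and Adipoq on all 22 arrays, and Adipoq was -0.43, Cfd -0.93, Cidec 0.30 and Fabp4 0.56 in normoxia replicate 1. The mean of the 12 was lowest of all 22 mice there (-0.42), with Pck1, of glyceroneogenesis, at -1.83. In that mouse all 6 smooth muscle genes were below the pool, with Cnn1 at -2.21, Tagln at -1.09, Acta2 at -0.55 and Smtn at -0.01. For mesothelium and macrophages the list means there came 11th and 8th of 22: Msln, Wt1, Upk3b and Krt19 had -0.03, 0.17, -0.38 and -0.80, and Csf1r, Itgam, Cd68 and Mrc1 had 0.06, -0.06, -0.22 and 0.05. The part of any of these tissues in the levels of the sperm genes was not tested.

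**Figure D3:**
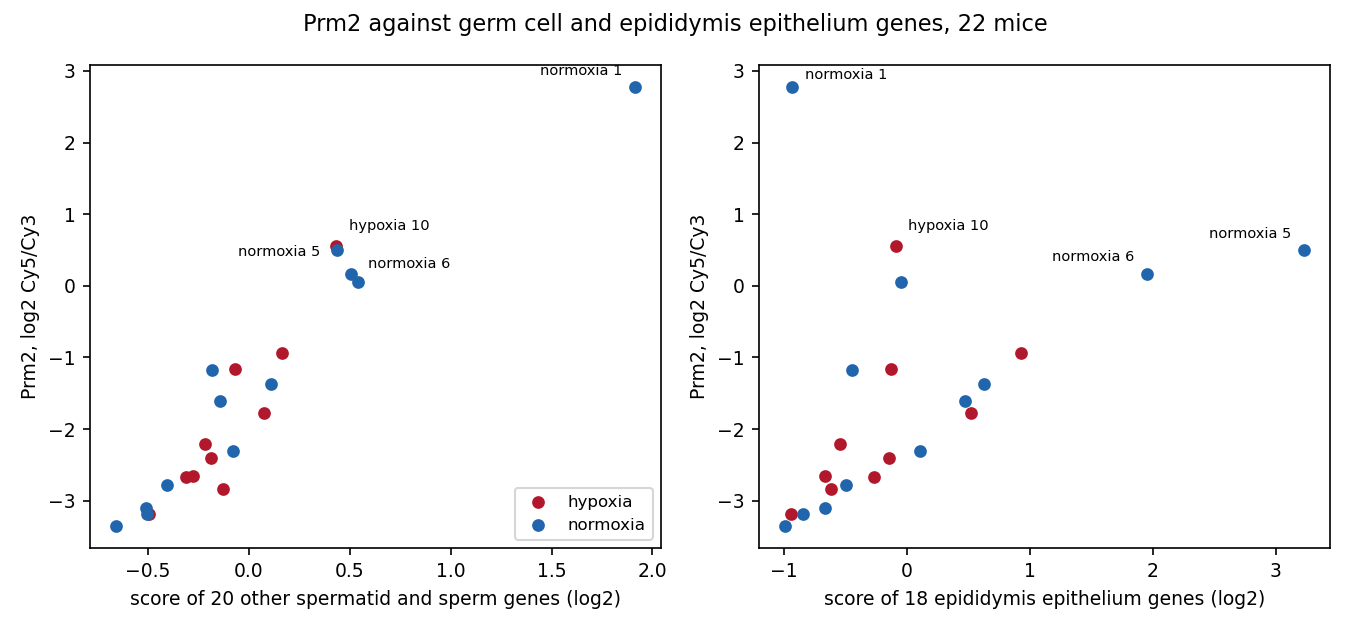
Log2 Cy5/Cy3 of Prm2 in each of 22 mice (red, hypoxia; blue, normoxia) against the mean centred log2 ratio of 20 other spermatid and sperm genes (left) and of 18 epididymis epithelium genes (right). Normoxia replicate 1 is at the top right of the left panel and at the top left of the right panel, where its epididymis score is -0.93.

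Each of the 9 genes was then compared with the mean of each of 6 lists over the mice by a permutation test (100000 resamples, two-sided, group means subtracted, Benjamini-Hochberg adjustment over the 54 pairs). The genes and lists were chosen with earlier results of these data known, so the p values are a description. The 9 genes varied together across mice, so their 9 results are not separate evidence. No Pearson correlation passed the threshold of 0.05. With epididymis epithelium, r was between 0.05 (Akap4) and 0.55 (Tnp1), with adjusted p from 0.272 to 0.935, and fell to between -0.03 and 0.44 when the 2 mice farthest from the median of the list, normoxia replicates 5 and 6, were left out. Spearman's rho passed for 6 pairs: Gapdhs (rho 0.64, adjusted p = 0.0279), Smcp (0.61, 0.0397), Prm2 (0.60, 0.0424) and Tnp1 (0.58, 0.0472) with epididymis epithelium, and Akap4 (0.68, 0.0279) and Gapdhs (0.65, 0.0279) with Sertoli cell genes. With slide means subtracted, none of these rho values passed. The resampling exchanged mice across slides and not within them, so p values after subtracting slide means can be too small. The correlation with epididymis epithelium rested on which mice entered: without normoxia replicate 1, a choice made after its values were seen, all 9 genes passed with r from 0.56 (Odf1) to 0.79 (Smcp) and adjusted p from 0.00027 to 0.0309. This was not particular to that list: with Sertoli cell genes 6 of 9 passed in the same mice by both measures (Akap4, Gapdhs, Ldhc, Prm2, Prm1 and Tnp2; Pearson r from 0.53 to 0.67, lowest adjusted p 0.00972). In those 21 mice with slide means subtracted, 2 of the 9 passed, Smcp (r = 0.74, adjusted p = 0.00378) and Prm2 (r = 0.56, adjusted p = 0.044).

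With adipocyte genes, the 9 Pearson correlations lay between -0.28 and -0.03 and none passed. With slide means subtracted they lay between -0.70 and -0.48 in the same permutation test, and those of Smcp (adjusted p = 0.0176), Prm2 (0.0176), Tnp1 (0.0254) and Prm1 (0.0312) passed. As mice were exchanged across slides, these and the later p values with slide means subtracted can be too small. Leaving out the 2 mice farthest from the median of the adipocyte list, hypoxia replicate 7 and normoxia replicate 3, gave -0.77 to -0.56. Slide 1, with its dim Cy5 channel, held the 3 highest adipocyte scores (normoxia replicate 3, 0.67, and hypoxia replicates 7 and 5, 0.56 and 0.44). For the mesothelium, smooth muscle and macrophage lists no member passed by either measure with group means subtracted, with r from -0.41 to -0.12, from -0.04 to 0.23 and from -0.35 to -0.03. Without normoxia replicate 1 and with slide means subtracted, 5 of 9 passed with mesothelium by both measures (Prm1, Akap4, Smcp, Tnp1 and Prm2; r from -0.62 to -0.57, adjusted p 0.044), and Prm2 and Smcp with adipocyte genes by Pearson's r (-0.57 and -0.58, adjusted p 0.044). Without that mouse and with group means subtracted, Prm2 passed with smooth muscle genes by Spearman's rho (0.53, adjusted p = 0.0485).

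The 12 named genes whose pattern over the mice was most like the mean of the 7 sperm genes with a probe well above background on at least 5 arrays (Prm1, Prm2, Tnp1, Tnp2, Smcp, Gapdhs and, by its second probe, Ldhc) were sought among 14179 others, by Pearson r with group means subtracted. They were Gsg1 (0.97), Dbil5 (0.96), Gm3448 (0.96), Tuba3a (0.95), Tcp11 (0.95), Tuba3b (0.93), 1700009N14Rik (0.92), Slc2a5 (0.92), Wbscr25 (0.91), Odf2 (0.91), Clec2m (0.91) and Hspa2 (0.91), against a median of -0.03 over all candidates. Gsg1, Dbil5, Tuba3a, Tcp11, Odf2 and Hspa2 stood on the germ cell lists already. Gsg1, a germ cell protein, was 3.04 in normoxia replicate 1 and at most 0.16 in any other mouse. Slc2a5, the fructose transporter, was 2.18 there and at most 0.40 elsewhere. Without normoxia replicate 1 the r of these 12 genes ranged from 0.83 (Hspa2) to 0.97 (Gsg1). Over 14251 named genes, 125 were at least 1 log2 unit above every other mouse in normoxia replicate 1, 82 in normoxia replicate 6 and 21 in normoxia replicate 5, and at most 11 in any other mouse.

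Hypoxia was then compared with normoxia in a limma fit over all 16593 genes with at least 10 arrays well above background. Among the sperm genes, 5 passed that filter and none was called after Benjamini-Hochberg adjustment, against 0% of all genes called (smallest adjusted p 0.0692; 879 genes, 5.3%, had an unadjusted p below 0.05, and 2.72% had one and were lower in hypoxia). None of the 5 was among those 879 either. All 5 were lower in hypoxia by their means, as were 49.6% of all genes, but by less than the spread between mice. Tnp2, Odf1, Akap4 and Ldhc were too dim to be tested.

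Smcp averaged -1.20 ± 0.95 in the 10 hypoxia mice and -0.42 ± 1.87 in the 12 normoxia mice (mean log2 ratio ± SD). The difference was -0.78 with an SE of 0.57, a 95% interval of -1.95 to 0.39 and a limma adjusted p of 0.981. Prm2 averaged -1.93 ± 1.13 in the hypoxia mice and -1.28 ± 1.86 in the normoxia mice, a difference of -0.65 (SE 0.59, interval -1.85 to 0.56, limma adjusted p = 0.981). Prm1, with -1.40 ± 0.97 and -0.99 ± 1.74, differed by -0.41 (SE 0.54, interval -1.51 to 0.70, limma adjusted p = 0.989). These intervals reach from a level well below that of normoxia to one above it, so the number of mice did not settle the direction. Gapdhs averaged -0.49 ± 0.29 in the hypoxia mice and -0.22 ± 0.86 in the normoxia mice, a difference of -0.28 (SE 0.25, limma adjusted p = 0.981). Tnp1 averaged -0.44 ± 0.46 and -0.38 ± 0.54, a difference of -0.06 (SE 0.19, limma adjusted p = 0.995). Of the untested genes, the means differed by -0.45 for Ldhc, -0.28 for Akap4, -0.19 for Odf1 and -0.08 for Tnp2.

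One mouse in each group set much of these differences. Without normoxia replicate 1 the difference of Prm1 was -0.06, of Prm2 -0.28, of Smcp -0.45 and of Gapdhs -0.05. Tnp1 and Tnp2 then changed sign, to 0.011 and 0.013, while Ldhc, Akap4 and Odf1 stood at -0.10, -0.04 and -0.05. Leaving out hypoxia replicate 10 moved the other way, to -0.66 for Prm1, -0.92 for Prm2 and -1.04 for Smcp. Tnp1 also turned to 0.025 without hypoxia replicate 1 and to 0.023 without normoxia replicate 5. No sperm gene was called in any of the 22 fits that left out 1 mouse.

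**Figure D4:**
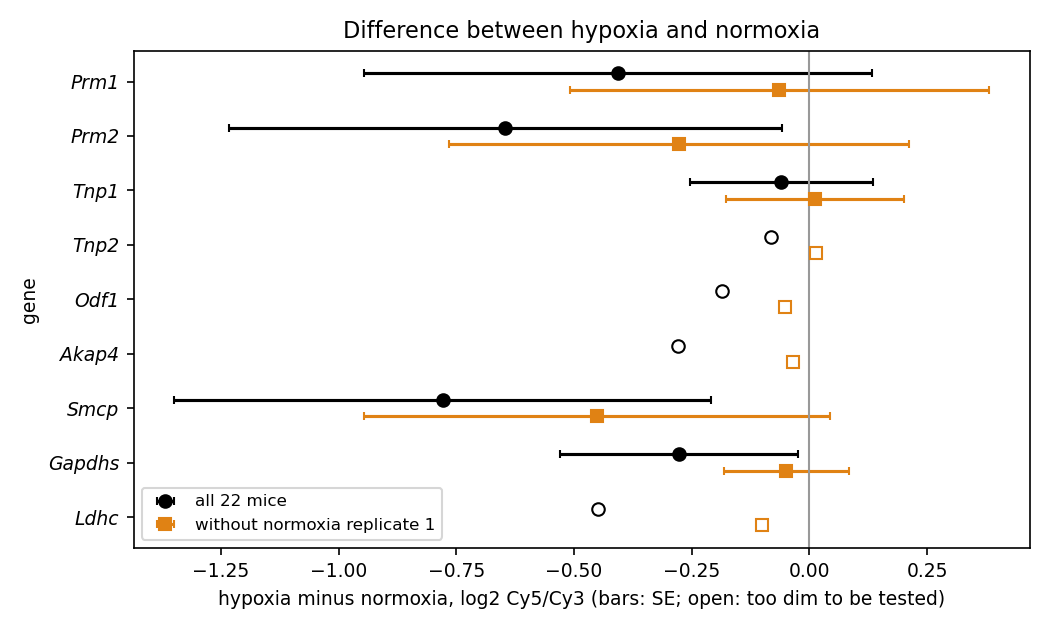
Difference between hypoxia and normoxia in the log2 Cy5/Cy3 ratio of each gene, with all 22 mice (black circles) and without normoxia replicate 1 (orange squares). Bars are SE for the 5 tested genes and open symbols mark the 4 that were too dim to be tested; without that mouse, the differences lie nearer to 0 for all 9 genes.

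Mice of both groups shared 5 slides, and within them hypoxia was below normoxia on 5 of 5 slides for Smcp, Gapdhs and Odf1, on 4 for Prm1, Prm2, Tnp1, Akap4 and Ldhc, and on 3 for Tnp2. The largest gap lay on slide 6, which holds normoxia replicate 1: on it Prm2 averaged -2.70 in the hypoxia mice and -0.01 in the normoxia mice. On the other shared slides the differences were only -0.20 to -0.10 for Gapdhs and -0.23 to -0.04 for Odf1. Odf1 was well above background on only 4 arrays. On slide 4, with hypoxia replicate 10 and normoxia replicate 6, Prm2 averaged -1.06 in the hypoxia mice and -1.07 in the normoxia mice. Slide 2 held normoxia mice only and gave no value. Each slide compares 2 mice with 2.

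Of the 51 other spermatid and sperm genes, 13 were tested, 0 were called and 0 had an unadjusted p below 0.05; 12 of the 13 were lower in hypoxia, with a median difference of -0.21, against 0.0011 over all genes. Their values come from the same mice and are high in the same pads, so they are no separate evidence: without normoxia replicate 1, 9 of the 13 were lower and the median was -0.04. Odf2 averaged -0.72 ± 0.41 in the 10 hypoxia mice and -0.41 ± 1.10 in the 12 normoxia mice (limma adjusted p = 0.984), and Dbil5 -0.42 ± 0.54 and -0.02 ± 1.25 (limma adjusted p = 0.982). Of the 9 tested epididymis epithelium genes, 8 were lower in hypoxia by their means and none was called, with a median difference of -0.43. The normoxia means include the high replicates 5 and 6. The median over mice of the mean of the 18 measured genes was -0.21 in hypoxia and -0.25 in normoxia. For the other lists, again with none called, 1 of 2 tested spermatocyte genes, 2 of 4 Sertoli cell genes, the 1 Leydig cell gene, 2 of 12 adipocyte genes, 0 of 9 mesothelium genes, 1 of 6 smooth muscle genes and 2 of 7 macrophage genes were lower. The somatic counterparts Gapdh (0.05, SE 0.15, limma adjusted p = 0.994) and Ldha (0.07, SE 0.12, limma adjusted p = 0.993) did not pass either. Pgk1, the somatic phosphoglycerate kinase, averaged 0.06 ± 0.15 in the hypoxia mice and -0.21 ± 0.19 in the normoxia mice; the difference of 0.27 (SE 0.08) had an unadjusted p of 0.0026 and a limma adjusted p of 0.565. Unadjusted p values below 0.05 were also found for 3 of the 6 smooth muscle genes, Tagln (difference 0.47), Acta2 (0.34) and Cnn1 (0.96), with limma adjusted p from 0.746 to 0.831, and for 1 gene each of the Sertoli cell and mesothelium lists.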

How the data were processed

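The authors deposited, per the file headers, 1 scanner file per array with spot intensity in Cy5 and Cy3, spot flags and a log10 ratio, and a table of log2 values; the images were extracted with Agilent Feature Extraction 10.7.3.1, per the submitters' processing notes. Spot intensities were background-corrected (normexp, offset 50) and normalized by loess within each array in limma 3.58.1 (R 4.3.3), leaving out spots with an outlier flag and averaging spots of 1 probe. The scanner software's own ratio was turned into log2, and each array's median over gene spots was subtracted from it. A probe was tested if well above background in Cy5 on at least 10 arrays, and a gene was represented by its brightest tested probe. limma's moderated test used group alone, with Benjamini-Hochberg adjustment over all genes. The test was tested on simulated data. Scores of lists (mean of at least 3 centred genes measured on at least 5 arrays) and permutation tests used Python 3.11.15. Named were every member, the 4 brightest genes of each list and the 12 genes most like the members. The members and lists were chosen with earlier results of these data known. Replicates are separate mice, and their number limits the precision. Alternatives changed the background correction, normalization, filter, probe summary, slide, array weights and mice.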

Additional observations from a re-analysis of the deposited data

Results flagged for a closer look

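Among the 10 hypoxia mice, 22 sets of values (12 probes and 10 list scores) were checked for a mouse whose gap to its neighbour was a large share of the range (Dixon's ratio, critical value 0.466), and 3 passed; chance alone gives about 1 in 20. Prm1 passed with 0.4917 and Smcp with 0.4903, both through hypoxia replicate 10, at 0.88 for Prm1 and 1.13 for Smcp. Prm2, with the same mouse on top, had 0.3996. The mean of a list of 5 somatic genes (Gapdh, Ldha, Ldhb, Pgk1 and Akap1) passed with 0.4669, through hypoxia replicate 7, at 0.31. The check was set here for the 10 hypoxia mice alone, so the 12 normoxia mice, replicate 1 among them, were not put to it.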

How the results depend on the processing

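Under 17 alternative settings the median difference of the 9 sperm genes stayed below 0 (-0.51 to -0.19), and leaving out each mouse gave -0.37 to -0.05; no sperm gene was called under any of them. Tnp1 reversed with the deposited value table (0.055) and with array weights (0.015), and ranged from -0.14 to 0.025 on leaving out each mouse, reversing without hypoxia replicate 1 (0.025), normoxia replicate 1 (0.011) or normoxia replicate 5 (0.023). The untested Odf1 stood at 0.067 with the deposited value table. The number of genes called, 0, became 1 with the Feature Extraction ratio, 2 with a filter of all 22 arrays, 2 with slide as a fixed block, 2 without slide 1 and 4 with array weights, and 0 to 3 on leaving out each mouse; unadjusted p values below 0.05 numbered 879, against 71 with median centring, 159 with the deposited value table, 1593 without a filter, 434 with all 22 arrays, 1561 with array weights and 561 with the replicate block. The spread of the sperm genes (median SD 0.72) was 1.63 with the Feature Extraction ratio, which adds no offset, and 0.54 to 0.74 on leaving out each mouse, and the median r of pairs was 0.80 to 0.87 on leaving out each mouse. Pairs of a sperm gene and a list past the threshold, 0 by Pearson and 6 by Spearman of 54, were 4 and 0 with slide means subtracted, 15 and 16 without normoxia replicate 1, and 9 and 6 with both. Counts with slide means subtracted can be too high, because the resampling exchanged mice across slides. The median of the other spermatid genes lay between -0.27 and -0.04 on leaving out each mouse. Same-numbered mice did not deviate together (r -0.47 to 0.25 over 10 pairs, 2 above 0.1, 0 of 10 hypoxia mice best matched by their own number). The labels name no pairs, and these values cannot exclude that the replicate numbers pair mice. With the replicate block 0 genes were called and the median difference of the sperm genes was -0.37. Probes near background in Cy5, on slide 1 above all, limit the values of Tnp2, Odf1, Akap4 and Ldhc. The cause of these changes was not tested.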
